A study of Mus musculus with 4 samples.

Results

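Lysosomal gene expression in the mouse aorta was followed through 35 genes across cell classes: the hydrolases that digest protein, lipid and sugar chains, the proteins of the lysosomal membrane, the proton pump that acidifies the organelle, and the transcription factor Tfeb. The genes were taken by symbol from a fixed list, and all 35 were found among the 32285 features of the deposited matrices. Single-cell RNA was measured in 4 libraries, 1 per group, made with a droplet kit that reads the 3′ end of each transcript and counts unique molecular identifiers (UMIs). Normal diet was fed to WT and to LysM-DKO animals, and western diet to WT/ApoE-/- and to LysM-DKO/ApoE-/- animals, and values in each library follow that order. The 2 western diet groups share the loss of Apoe, the apolipoprotein whose absence raises plasma cholesterol and leads to atherosclerosis, and the 2 normal diet groups carry Apoe.

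The name LysM-DKO is not explained in the labels. From knowledge of the study rather than from the labels, it stands for deletion of the endocytic adaptor genes Epn1 and Epn2 by a Cre under the Lyz2 (LysM) promoter, which is active in macrophages, monocytes and neutrophils. The number of aortas in each library, their age and whether animals were pooled are not given in the sources used here. Since each group is a single library, groups could not be tested against each other, and intervals on ratios between libraries cover counting error only.

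Lysosomes are acidic compartments in which macrophages break down what they engulf, lipoproteins in the artery wall included. Most of their enzymes work only at low pH, which the vacuolar proton pump maintains by using ATP to move protons through its membrane sector. Tfeb and its relatives are known to bind a short palindrome in the promoters of many lysosomal genes (the CLEAR element) and to raise them together, and lipid-laden foam cells depend on lysosomal acid lipase to free cholesterol from its esters.

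The core of that palindrome was looked for in promoters because many of these genes are known to be controlled together. RefSeq windows on GRCm38.p6, 250 bases before to 50 after each start, matched 28 of the 35 genes. Ctsb, Ctsh, Asah1, Npc1, Atp6v0d2, Atp6v1b2 and Atp6v1h had no entry. On either strand, CACGTG was found for 9 of the 28 genes (32.1%) against 8.09% of 27025 genes, the longer TCACGTG, which contains it, for 8 (28.6%) against 4.29%, and the full 8-base palindrome TCACGTGA, which contains both, for 5 (17.9%) against 1.12%. The 5 genes with the full palindrome are shown with 20 bases on each side, 5′ to 3′ on the strand of the gene, with the palindrome in capitals, at chr7:142387899-142387946 (minus strand, bases -99 to -92 from the start) for Ctsd, chr2:164833740-164833787 (plus, -13 to -6) for Ctsa, chrX:134601206-134601253 (minus, -228 to -221) for Gla, chr8:3500453-3500500 (plus, -46 to -39) for Mcoln1 and chr16:44139364-44139411 (minus, -132 to -125) for Atp6v1a.
Ctsd: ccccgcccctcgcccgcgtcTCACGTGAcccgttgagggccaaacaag
Ctsa: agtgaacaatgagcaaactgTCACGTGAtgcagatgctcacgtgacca
Gla: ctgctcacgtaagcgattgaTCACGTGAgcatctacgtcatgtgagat
Mcoln1: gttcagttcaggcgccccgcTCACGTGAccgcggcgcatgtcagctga
Atp6v1a: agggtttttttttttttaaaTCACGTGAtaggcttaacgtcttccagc

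Lamp1, whose product coats the inner face of the lysosomal membrane, held the 7-base form TCACGTG at 4 places, and Ctsd, Ctsa, Gla and Mcoln1 held it or the full palindrome at 2 places each. The other full palindrome of Ctsa, at bases 4 to 11 from the start, lies in lower case within the stretch shown. Glb1 and Lgmn held the 7-base form once, and Ctsl held only CACGTG. The windows of Ctss and Ctsk, which are neighbours on chromosome 3 with 17423 bases and no protein-coding gene between them, held none of the 3 forms. A match describes the letters of a window and is not a measured binding site, and no match says only that these letters were not in it.

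Barcodes of 1000 UMIs or more, of which mitochondrial genes made up no more than 10%, numbered 7758, 8230, 13744 and 8133 and were given to the first class whose marker rule they met, so that the macrophage class is every such barcode with at least 5 UMIs of C1qa, C1qb and C1qc together. It held 92, 208, 939 and 135 barcodes, of which 56, 133, 408 and 50 also met the rule of another class. The class had 477498, 1100823, 3911134 and 701811 UMIs. All 8 other macrophage markers were detected in it in each library, at a summed 4295 to 5664 CPM (UMIs per 1000000 UMIs of the class in the library), against 8.28 to 109.0 CPM in the other classes, and every class held all markers of its own. Lyz2 stood at 3696, 977, 4126 and 798 CPM in macrophages, lower in both LysM-DKO libraries, and Apoe at 7012, 5435, 8.44 and 8.55 CPM. Epn1 stood at 81.7, 54.5, 52.4 and 42.7 CPM and Epn2 at 35.6, 33.6, 33.2 and 15.7 CPM, but reads at the 3′ end may lie outside a deleted part and so do not check the label. Xist was detected in the normal diet libraries and Y-linked genes in the western diet libraries, so that diet, Apoe, sex and the version of the counting software cannot be told apart. The LysM-DKO western diet library held only 14 B and 33 T barcodes. Libraries shared 38 to 129 barcode sequences by pair, at most 0.824% of the smaller library.

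Macrophages carried far more lysosomal RNA than any other class. The 35 genes took 1.31, 1.56, 2.77 and 2.50% of macrophage UMIs, against 0.234 to 0.813% in the B, T, endothelial, fibroblast and smooth muscle classes. Ctsb, which encodes the cysteine protease cathepsin B, was the most abundant of them in macrophages, with 16.6 to 19.1% of the members' UMIs. Each gene was compared between classes with edgeR's quasi-likelihood test with Benjamini-Hochberg adjustment over 13780 genes, on 24 sums of UMIs per library and class, with the library as a block. In that fit 34 of 35 members were higher in macrophages than in the mean of the other 5 classes, where 22.3% of all genes tested were higher and 19.4% lower. The members' median log2 difference was 2.12, and that of all genes was -0.10. The spread in this test is that between 4 libraries of different genotype and diet, and C1q, not a member, chose the class.

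**Figure D1:**
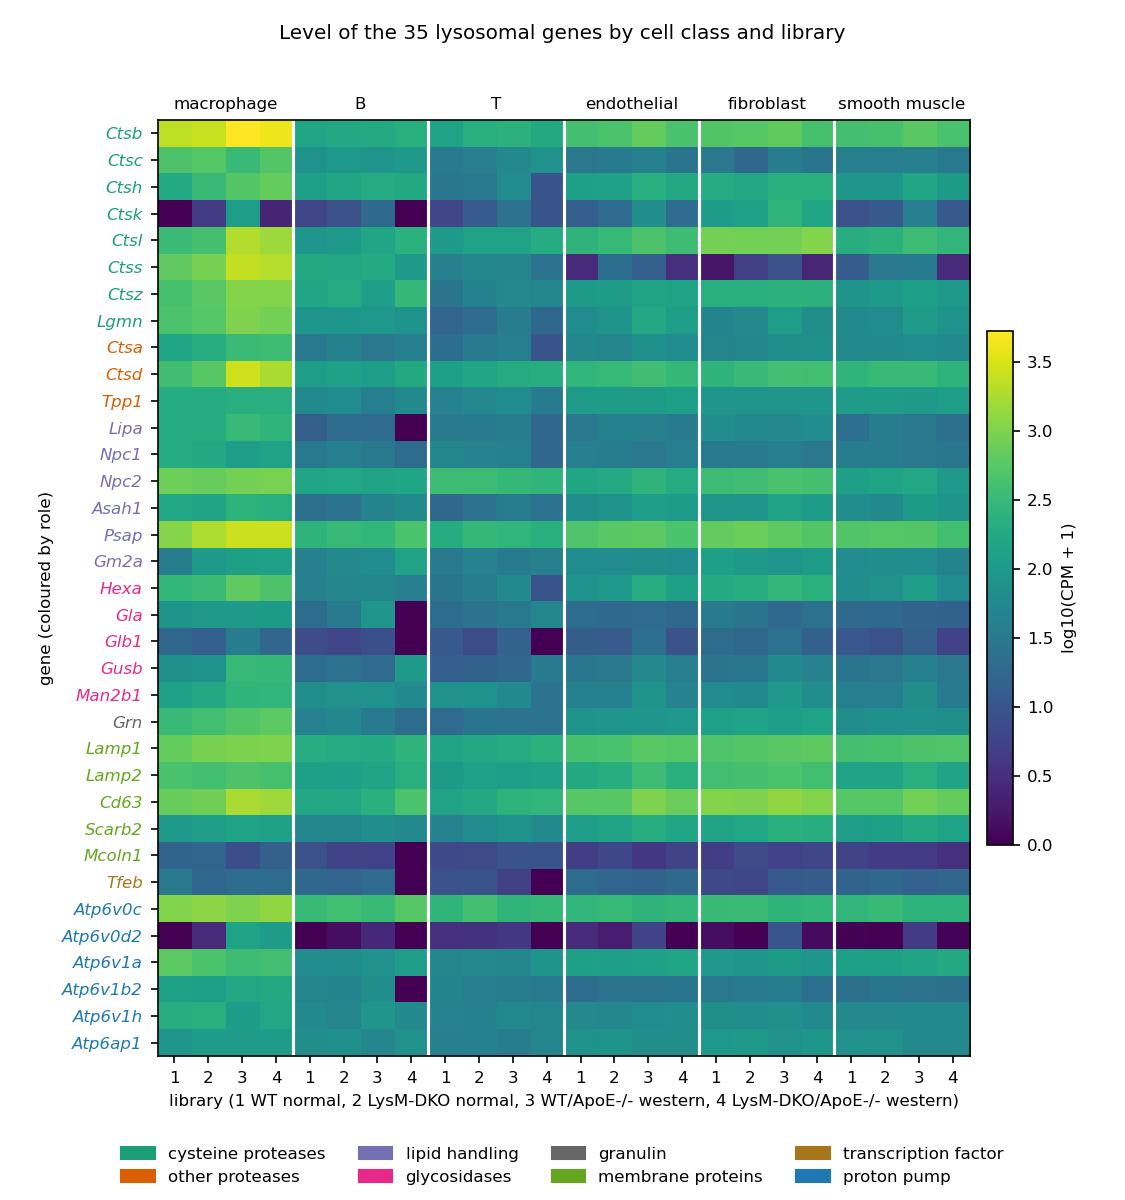
Level of each of the 35 genes (rows, coloured by role) in the 6 cell classes and 4 libraries (columns), as log10 of CPM plus 1. The macrophage columns are the brightest for most rows, Ctsk and Scarb2 are brighter in fibroblasts, and Ctsk and Atp6v0d2 change most from library to library in macrophages.

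The cysteine proteases, the largest enzyme group with 8 members, had a median log2 difference of 3.26 between macrophages and the other classes, the highest of the groups with more than 1 member. Ctsb (chr14:63122462-63145923, GRCm38) stood at 2295, 2585, 5288 and 4279 CPM in macrophages and was 3.60 higher on the log2 scale (SE 0.10). Because each molecule is counted once at its 3′ end, these levels are not divided by gene length. Other differences in how fully genes are counted, such as overlap with another gene, were not tested and may affect comparisons between genes. Ctss, which encodes cathepsin S, known for cutting the invariant chain of MHC class II and elastin, showed the largest difference of all 35, 6.56 (SE 0.36). Its levels of 641, 898, 2429 and 2042 CPM in macrophages compare with 0.7 to 7.4 CPM in fibroblasts. B cells came next after macrophages in every library, at 179, 172, 188 and 99.6 CPM, the last from 5 UMIs. Ctsc, the activator of granule serine proteases, stood at 477, 550, 337 and 536 CPM, and differed by 3.75 (SE 0.13). Lgmn, legumain, which cuts after asparagine and helps other cathepsins mature, stood at 459, 559, 1002 and 893 CPM and differed by 3.62 (SE 0.11).

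Ctsl, Ctsh and Ctsz, which complete the group beside Ctsk, stood at 350, 428, 1950 and 1518 CPM, at 188, 321, 525 and 701 CPM, and at 438, 598, 1091 and 1064 CPM. Cathepsin L cuts as an endopeptidase, while cathepsins H and Z mainly trim chain ends. All 3 were higher in both western diet libraries than in both normal diet libraries. The 3 other proteases had a median difference of 2.61, led by Ctsd (chr7:142375911-142388038), the aspartic protease cathepsin D, at 385, 573, 2866 and 1807 CPM. Ctsa and Tpp1, which remove residues from the ends of chains, ranged from 161 to 363 CPM.

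Lipid handling was led by Psap (chr10:60277627-60302597), the precursor of the saposins that present sphingolipids to their hydrolases, at 1095, 1835, 2630 and 2700 CPM. Lipa, lysosomal acid lipase, stood at 197, 204, 334 and 268 CPM and was 3.18 higher in macrophages on the log2 scale (SE 0.12). Of the pair that moves cholesterol out of the lysosome, Npc2 stood at 798, 719, 875 and 929 CPM, and Npc1 at 193, 174, 122 and 137 CPM, lower in both western diet libraries. Gm2a (chr11:55098115-55113029), the activator that hands ganglioside GM2 to hexosaminidase, stood at 35.6, 102, 128 and 132 CPM, and was among the 5 members with the smallest class difference, at 0.94 (SE 0.17).

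The 5 glycosidases had a median difference of 2.23. Hexa, the alpha chain of hexosaminidase, was the highest at 289, 350, 646 and 486 CPM, and Gusb, beta-glucuronidase, stood at 73.3, 78.1, 310 and 298 CPM. Glb1, beta-galactosidase, was the scarcest at 16.8, 12.7, 35.5 and 15.7 CPM. Grn, the granulin precursor, stood at 320, 393, 519 and 606 CPM.

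The 5 membrane proteins had a median difference of 1.46. Cd63, a tetraspanin of late endosomes, stood at 731, 820, 1774 and 1500 CPM. Lamp1 ranged from 695 to 996 CPM. Scarb2, the receptor that carries glucocerebrosidase to lysosomes, stood at 98.4, 121, 142 and 134 CPM, with a difference of only 0.40 (SE 0.09, adjusted p 0.00129 by edgeR's quasi-likelihood test). Mcoln1, the calcium channel of the lysosome, was at 14.7, 15.4, 6.9 and 12.8 CPM.

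Tfeb itself was scarce, at 31.4, 16.4, 19.7 and 19.9 CPM from 15, 18, 77 and 14 UMIs, and its class difference was 0.98 (SE 0.22). Its highest level, in the WT normal diet library, rests on 15 UMIs. Whether the level of Tfeb bears on the levels of the other members was not tested.

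Proton pump subunits had a median difference of 2.26 over 6 genes. Atp6v0c, the ring that carries the protons, stood at 1051, 1198, 1019 and 1267 CPM. Atp6v1a, the catalytic subunit, stood at 616, 466, 352 and 409 CPM and Atp6v1h, a regulatory subunit, at 207, 216, 110 and 171 CPM, each lower in both western diet libraries than in both normal diet libraries. Atp6ap1, an accessory subunit, stood at 90.1, 112, 114 and 108 CPM, and differed by 0.94 (SE 0.09). Atp6v0d2 (chr4:19876841-19922605), an alternative d subunit of the membrane sector, was unlike the rest: 0, 2, 570 and 76 UMIs gave 0, 1.8, 146 and 108 CPM. Its class difference of 5.47 (SE 0.60) rests on the western diet libraries. In the normal diet libraries its level was highest in T cells, at 2.2 and 2.5 CPM.

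Ctsk and Scarb2 were the members highest in fibroblasts in all 4 libraries, while 23 members were highest in macrophages in all 4. The matching shares of all genes are not given here. Against fibroblasts alone, 28 members were higher in macrophages, 2 were lower and 5 were not called, with a median log2 difference of 1.84 where that of all genes was 0.00. Of all genes tested, 23.0% were higher and 22.0% lower. Ctsk, the collagen-cutting cathepsin K, differed by -2.71 (SE 0.41, adjusted p 1.01e-05 by edgeR's quasi-likelihood test) and Scarb2 by -0.38 (SE 0.12, adjusted p 0.011). Neither was called without the library block. Ctsl, Cd63, Lamp2, Gm2a and Glb1 were not called, with differences of 0.12 to 0.33. Fibroblasts held Ctsl at 893, 843, 876 and 1085 CPM and Cd63 at 1056, 1010, 1266 and 1038 CPM, levels that the macrophages of the normal diet libraries did not reach for either gene.

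**Figure D2:**
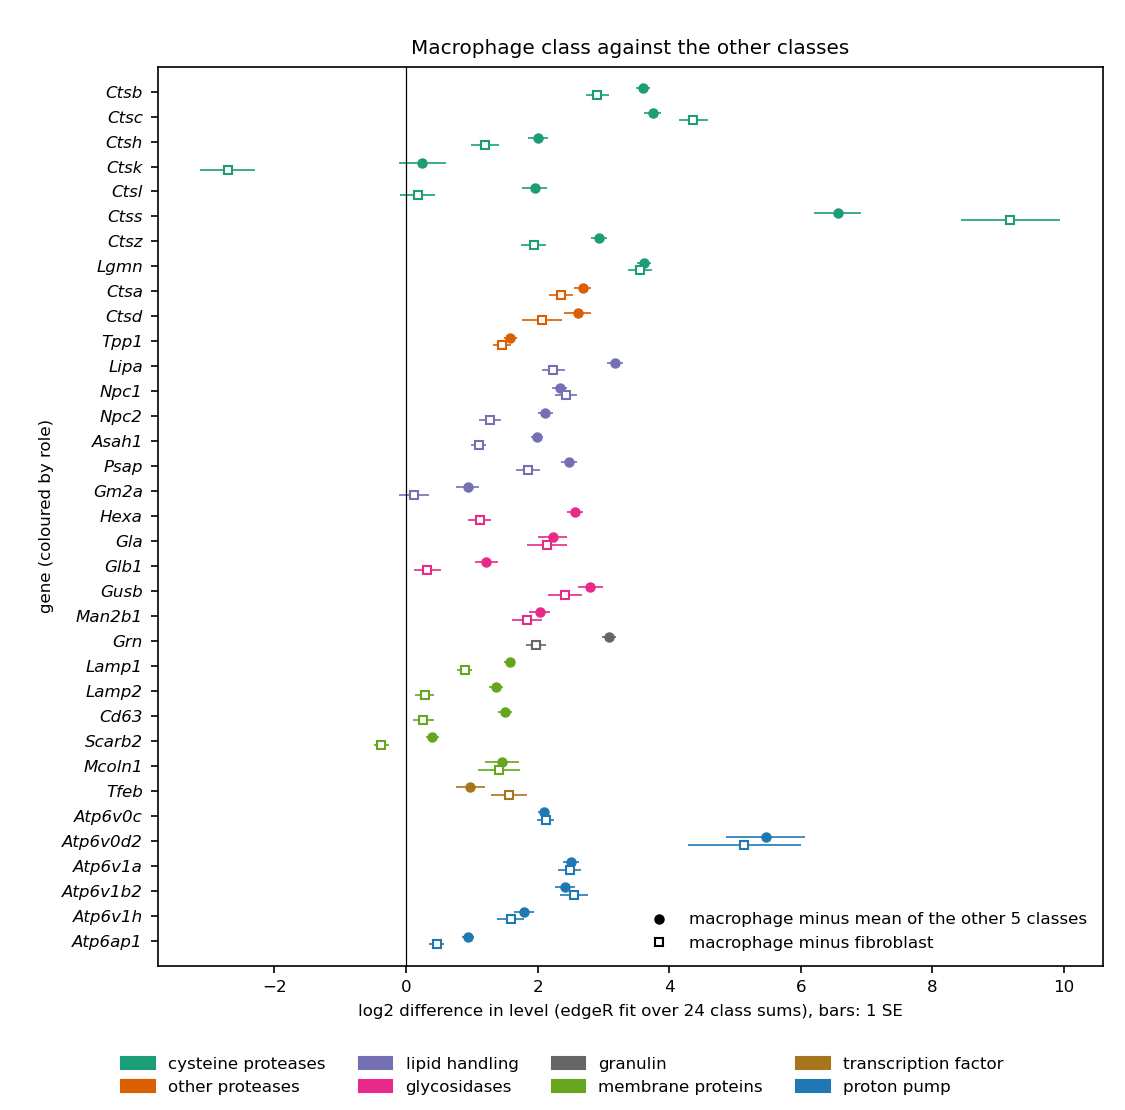
Log2 difference in level (horizontal axis) for each of the 35 genes, as macrophages minus the mean of the other 5 classes (filled circles) and macrophages minus fibroblasts (open squares), with bars of 1 SE from the edgeR fit over 24 sums. Ctss lies farthest to the right in both comparisons, and Ctsk lies at 0.25 against the mean of the classes and at -2.71 against fibroblasts.

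Free RNA from broken macrophages sets a background in the other classes. Tyrobp, Fcer1g, Aif1 and Csf1r, genes that those classes should lack, were found there at 0 to 4.33% of their macrophage level, and 27 to 35 of the 35 members stood above all 4 of these percentages in a given class and library. In B and T cells of the LysM-DKO western diet library all 4 background genes were at 0. Any UMI put a member above them there, and the 27 is from those B cells. These 4 genes do not measure background RNA from classes other than macrophages. In smooth muscle of the WT western diet library Ctss was at 1.40% of its macrophage level, within the 1.24 to 1.44% of the 4 background genes. The part of background in it was not tested. In the other direction, Acta2, a smooth muscle gene, was found in macrophages at 12.3 to 24.1% of its smooth muscle level.

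Within the macrophage class, barcodes were divided by genes that are not members. Foamy macrophages had at least 2 UMIs of Trem2 and Gpnmb together, markers of lipid-associated macrophages, and under 2 of Lyve1 and Folr2, markers of resident ones, and resident macrophages the reverse. Gpnmb is itself a glycoprotein of lysosomes and melanosomes, so that the split is not free of lysosomal genes. Foamy barcodes numbered 9, 16, 402 and 45, or 9.78, 7.69, 42.8 and 33.3% of the class, and resident ones 34, 64, 21 and 39. A further 4, 10, 66 and 8 met both rules and 45, 118, 450 and 43 neither.

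Foamy macrophages held a higher level of 11 members than resident ones, and a lower level of 1. The WT normal diet library, with 9 foamy barcodes, was left out, and edgeR's quasi-likelihood test with Benjamini-Hochberg adjustment ran on 6 sums from 3 libraries over 3986 genes, of which 8.23% were higher and 9.36% lower. Ctsk, Glb1, Mcoln1 and Tfeb had too few UMIs to pass the filter, and 19 of the 31 members tested were not called. The median log2 difference of those 31 was 0.65, beside 0.01 for all genes tested.

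Ctss stood at 1892, 3263 and 2876 CPM in foamy and at 616, 657 and 643 CPM in resident macrophages of the LysM-DKO normal diet, WT western diet and LysM-DKO western diet libraries. The states did not overlap, and the difference was 2.08 (SE 0.21, adjusted p 1.01e-05 by edgeR). Psap stood at 3680, 3593 and 3941 CPM against 1727, 944 and 939 CPM, a difference of 1.74 (SE 0.22, adjusted p 5.82e-05 by edgeR), with foamy levels close to each other in the 3 libraries. Ctsd differed by 1.73 (SE 0.33), and here the foamy level itself varied, at 946, 3840 and 2707 CPM against 757, 766 and 525 CPM in resident macrophages. Ctsz (1.72), Ctsl (1.66), Lipa (1.58), Gusb (1.47), Gm2a (1.29), Cd63 (0.95) and Atp6v0c (0.66) were also higher in foamy macrophages.

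Atp6v0d2 was not found in resident macrophages of any library. In foamy macrophages it stood at 216 CPM in the WT western diet library, at least 5.27-fold higher than the resident level that 3 UMIs would give, and at 192 CPM in the LysM-DKO western diet library, at least 7.56-fold higher by the same floor. It was at 0 in both states of both normal diet libraries, where foamy macrophages held few UMIs.

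Ctsc was the 1 member lower in foamy macrophages. It stood at 588, 310 and 352 CPM there and at 891, 1012 and 1074 CPM in resident macrophages, a difference of -1.25 (SE 0.25, adjusted p 0.00254 by edgeR). Among the subunits of the pump other than Atp6v0d2 and Atp6v0c, none was called, with differences from -0.41 for Atp6v1h to 1.01 for Atp6v1b2.

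Other measures moved with this split. Foamy barcodes were deeper, with a median of 3814.5 to 7223 UMIs against 2738 to 4649.5 in resident ones, and the 7 genes of tissue dissociation stress summed to 2999 to 6700 CPM in foamy and 9289 to 12791 CPM in resident macrophages. Their part in the result was not tested. Without the WT western diet library 4 members were called, all higher (Ctss, Psap, Ctsz and Lipa), and DESeq2 called 7 higher and 1 lower.

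**Figure D3:**
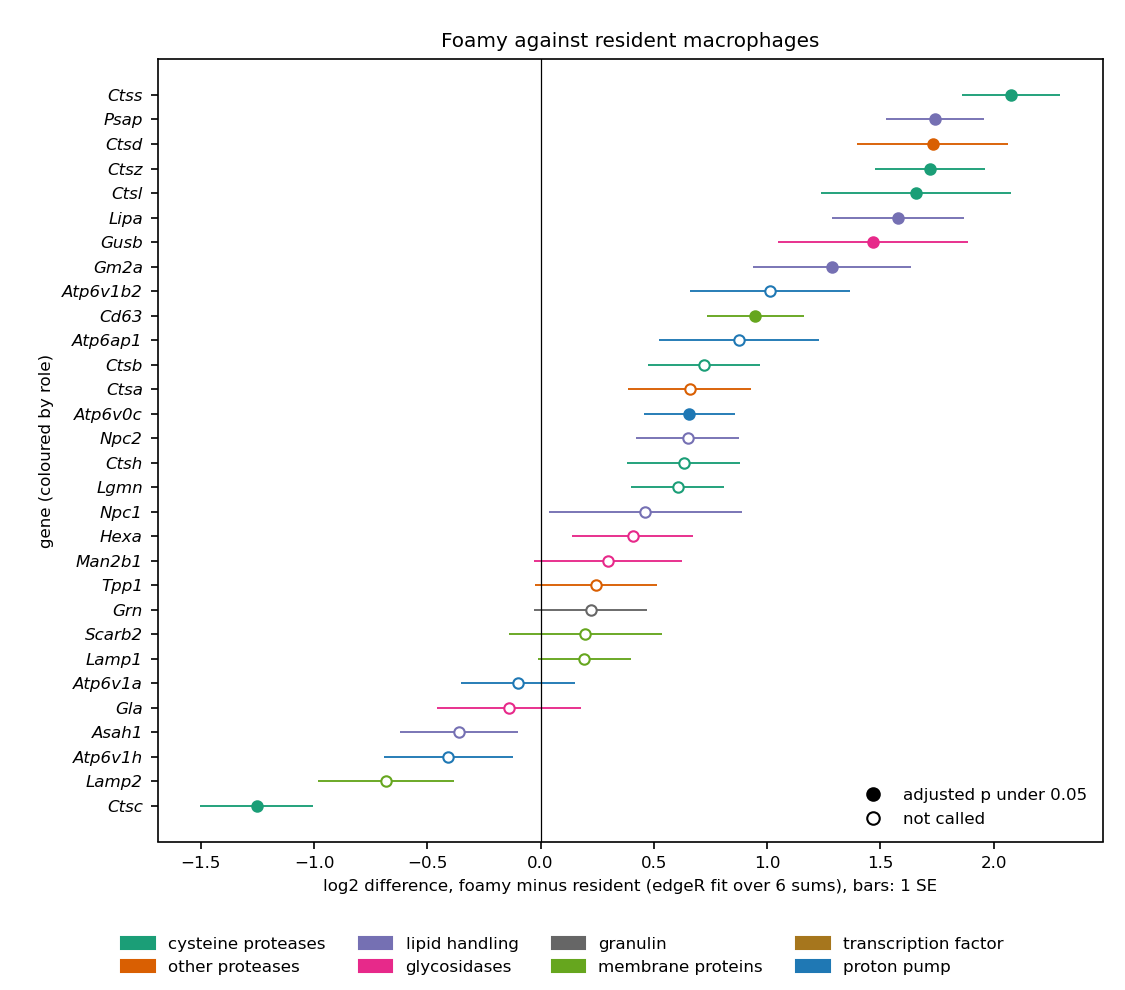
Log2 difference between foamy and resident macrophages (horizontal axis) for 30 of the 31 members tested, with bars of 1 SE from the edgeR fit over 6 sums and filled points for those with an adjusted p under 0.05. Atp6v0d2, at 0 in all resident sums, is left out of the plot. Ctss is at the top at 2.08 and Ctsc at the bottom at -1.25.

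Western diet macrophages of the ApoE-/- groups held a larger share of lysosomal RNA than normal diet macrophages. Of the 35 members, 24 were higher in both western diet libraries than in both normal diet libraries, as were 33.7% of 11148 genes, and 4 (Npc1, Mcoln1, Atp6v1a and Atp6v1h) were lower in both, as were 17.6%. These counts describe the libraries, and diet is joined with Apoe, sex and software version throughout.

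For WT, ratios of western over normal diet were taken after subtracting the median of all genes, 0.25 on the log2 scale. The members' median was then 0.51. The 95% interval lay above 0 for 20 members (13.6% of all genes) and below 0 for 6 (17.1%). Past 2-fold were 11 members higher, where 14.8% of genes were, and 3 lower, where 12.9% were. Ctsd was at 2.64 (95% interval 2.44 to 2.87), Ctsl at 2.23 (2.01 to 2.46), Gusb at 1.81, Ctss at 1.67, Gm2a at 1.56, Ctsh at 1.22, Ctsz at 1.07, Cd63 at 1.03 and Psap at 1.02. Ctsk and Atp6v0d2, at 0 UMIs in the WT normal diet library, were at least 15.6-fold and 19.5-fold higher after the same subtraction, against a floor of 3 UMIs, which puts both above Ctsd. The 3 lower members were Mcoln1 at -1.41 (-2.57 to 0.11, an interval that includes 0), Atp6v1h at -1.17 (-1.48 to -0.84) and Atp6v1a at -1.06 (-1.24 to -0.87).

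For LysM-DKO, after subtracting 0.10, the median of the 34 members counted was 0.33. Intervals lay above 0 for 19 (12.7% of all genes) and below 0 for 3 (14.5%). Past 2-fold were 6 members higher (5.78%) and 0 lower (7.88%): Atp6v0d2 at 5.48 (3.89 to 8.86, from 2 and 76 UMIs), Gusb at 1.82, Ctsl at 1.72, Ctsd at 1.55, Ctss at 1.08 and Ctsh at 1.02. The 8 cysteine proteases had medians of 1.14 in WT and 0.73 in LysM-DKO, and the 6 pump subunits -0.12 and -0.09. Members have more UMIs than most genes (a median of 1413 against 114 in the WT comparison), so that their intervals are narrower than those behind the percentages.

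**Figure D4:**
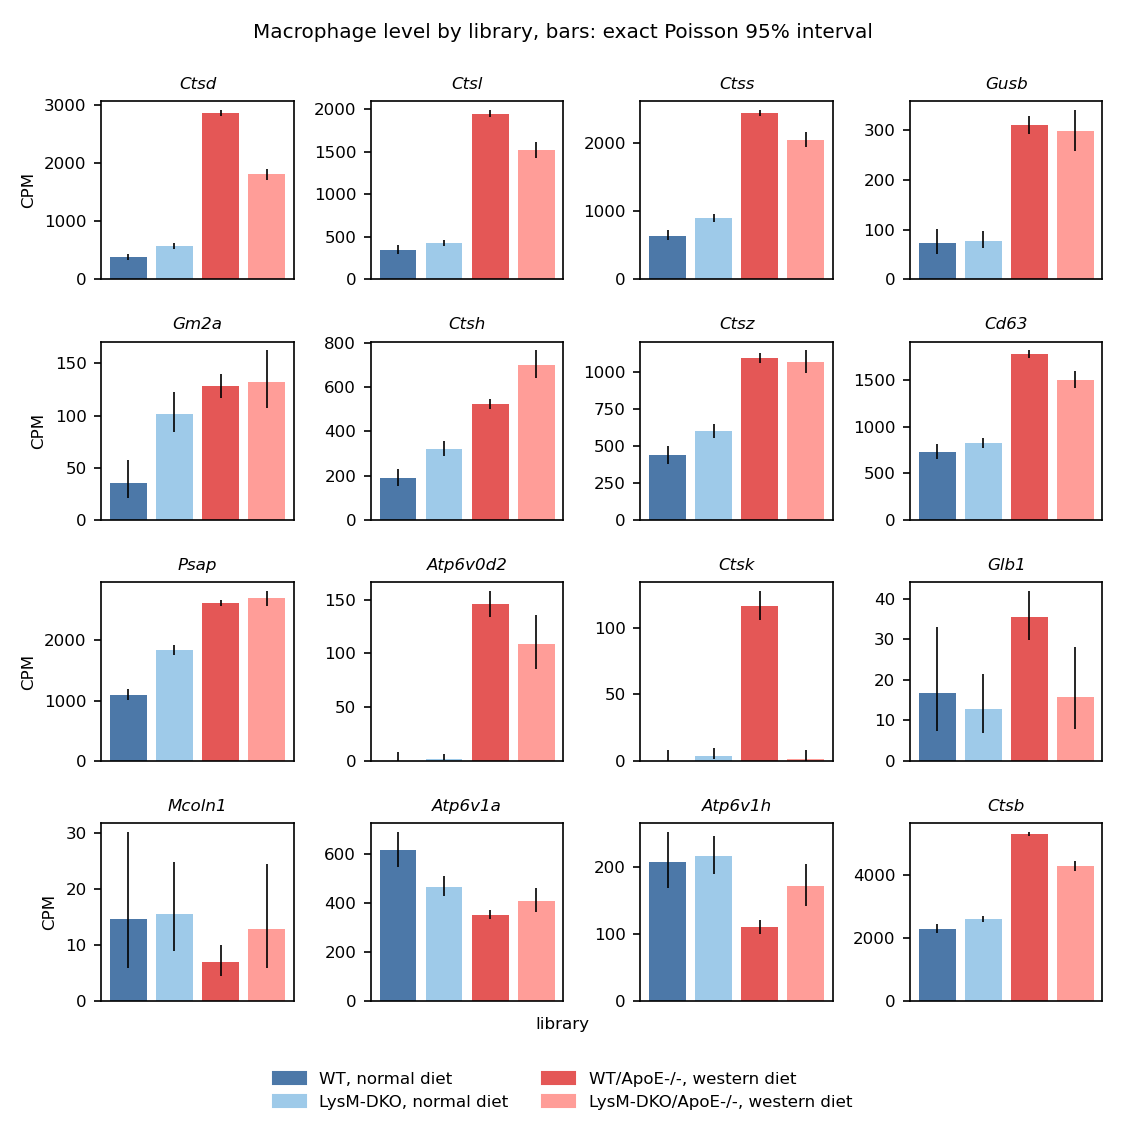
Level in macrophages, in CPM, of 16 of the members in each library, with exact Poisson 95% intervals for counting error. Ctsd, Ctsl, Ctss and Gusb are higher in both western diet libraries, Atp6v1a and Atp6v1h are lower there, and Ctsk is high in the WT western diet library alone.

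By state, the share differed between diets where Trem2 and Gpnmb were found. In foamy macrophages the members' share was 1.32, 2.17, 3.53 and 3.27% of UMIs, and in those that met both rules 1.38, 1.81, 4.64 and 3.84%. Resident macrophages held 1.38, 1.79, 1.57 and 1.58%, and those that met neither rule 1.24, 1.30, 1.20 and 1.36%, with no such step between diets. With resident macrophages alone, the median western over normal ratio of the members was 0.09 in WT and -0.13 in LysM-DKO, and with those of neither rule it was -0.20 in WT. The LysM-DKO median for neither rule is not given here. Members went both ways there, with Ctss at 840 and 1211 CPM and Ctsh at 310 and 655 CPM on normal and western diet. Ctsl was at 315 and 265 CPM and Lipa at 214 and 135 CPM. Macrophages of neither rule in the WT western diet library also held the highest fibroblast markers, 5881 CPM over 4 genes, and smooth muscle markers, 12560 CPM over 4 genes, and their part in these values was not tested.

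**Figure D5:**
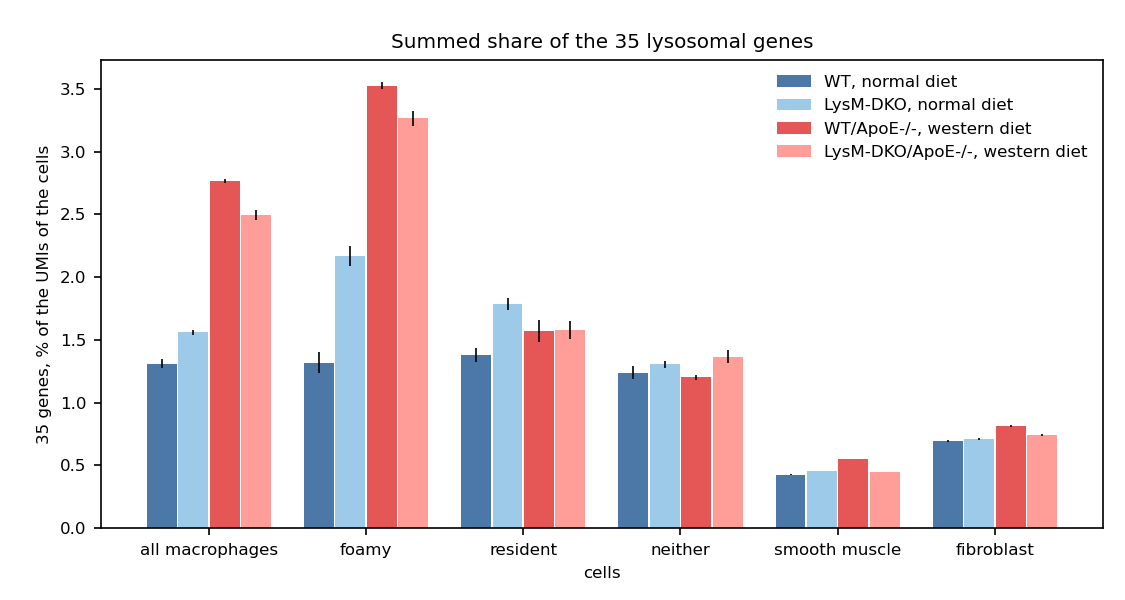
Summed UMIs of the 35 genes as a percentage of all UMIs (vertical axis) in all macrophages, in the foamy, resident and neither states, and in the smooth muscle and fibroblast classes of each library, with exact binomial 95% intervals for counting error. Foamy macrophages of the western diet libraries reach 3.53 and 3.27%, while macrophages of neither state stay between 1.20 and 1.36%.

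Between genotypes, all but 3 of the ratios counted in macrophages were within 2-fold. On normal diet, the LysM-DKO level divided by the WT level had a median log2 value of 0.20 over the 33 members with at least 20 UMIs, beside 0.05 for all genes. Above 0 were 24 of these members and 54.5% of all genes. Intervals lay above 0 for 13 (9.31% of genes) and below 0 for 1, Atp6v1a at -0.40 (7.53%). Only Gm2a was past 2-fold, at 1.48 (0.77 to 2.34), with 17 UMIs in the WT library and 112 in the other, where 6.55% of genes were higher by that much and 2.39% lower. Ctsh (0.76), Psap (0.74), Ctsd (0.57) and Ctss (0.49) had the next largest ratios among those with intervals above 0.

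On western diet the median was 0.03 over 35 members, beside -0.05 for all genes. Intervals lay above 0 for 6 (10.0% of genes) and below 0 for 11 (11.3%). Past 2-fold, 0 members were higher (4.10% of genes) and 2 were lower (9.10%): Ctsk at -5.77, from 1 UMI in LysM-DKO against 455 in WT, and Glb1 at -1.12 (-2.22 to -0.30). Ctsd was at -0.67 (-0.75 to -0.58), Ctsb at -0.31 (-0.36 to -0.25), and Ctsc at 0.67 (0.50 to 0.84). Resident barcodes were a larger part of the LysM-DKO than of the WT macrophages, 28.9 against 2.24%, and foamy ones were 33.3 against 42.8%, shares of 1 library each with no replicate. The median turned to -0.04 with foamy macrophages alone and -0.01 with resident ones alone.

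Ctsk and Atp6v0d2 varied most between libraries, and Ctsk was high in macrophages of 1 library only. Macrophages held 0, 4, 455 and 1 UMIs of it, or 0, 3.6, 116 and 1.4 CPM, and fibroblasts 113, 133, 268 and 153 CPM. The WT western diet library stands alone in macrophages, and without it Ctsk was lower in macrophages than in the mean of the other classes, at -2.77, where it was 0.25 (SE 0.36, adjusted p 0.623 by edgeR's quasi-likelihood test) with it. In that library the macrophage level was 43.4% of the fibroblast level, while the fibroblast markers Dcn, Col1a1, Lum and Col1a2 were at 10.6 to 14.0% of theirs, and Pdgfra and Serpinf1, which define the fibroblast class, at 5.59 and 4.67%. Macrophages meeting both state rules had the most Ctsk, 372 CPM (319 to 430) from 178 UMIs, and 666 CPM of the 4 fibroblast markers, the least among the states of that library. Foamy macrophages held 104 CPM of Ctsk with 2167 CPM of fibroblast markers, and those of neither rule 51.3 CPM with 5881 CPM. Leaving out barcodes that met more than 1 class rule gave 137 CPM of Ctsk from 315 UMIs, with the fibroblast markers at 1530 CPM where they had been 3333 CPM. The part of fibroblast RNA in these Ctsk levels was not tested. Osteoclasts are known for high Ctsk, Acp5 and Atp6v0d2, and of 4 other osteoclast markers Ocstamp and Dcstamp were detected in these macrophages, at a summed 41.4 CPM against 4.19 to 14.2 CPM in the other libraries, while Calcr and Oscar were at 0. Their part was not tested either. Other classes of the same library were high too, with 137 CPM in unclassed barcodes against 10.8 to 48.1 CPM in the other libraries.

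In wall cells other than macrophages the members also differed between the western diet libraries. In smooth muscle, LysM-DKO over WT gave a median log2 value of -0.37 over 35 members, beside -0.02 for all genes. The 95% interval lay below 0 for 25 members (28.2% of all genes) and above 0 for 4 (23.6%). Members had a median of 5938 UMIs here against 941 for all genes, so that their intervals are narrower than those behind the percentages. Glb1 (-1.47) and Man2b1 (-1.01), both glycosidases, were past 2-fold lower, as were 9.52% of all genes. Ctsk, Ctss and Atp6v0d2 were too, at -1.96, -4.23 and -5.24, and 0 members were past 2-fold higher (1.92% of all genes). Lyz2, a macrophage gene, moved with them in smooth muscle, at 54.3 CPM in the WT and 0.892 CPM in the LysM-DKO library, and its part in the ratios was not tested. The member medians were -0.29 in endothelial cells and -0.21 in fibroblasts, where the medians of all genes were 0.03 and 0.05.

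Beyond the 35, 71 other lysosome genes on 5 lists were read in the same fits. Of the 67 tested, 47 were higher in macrophages than in the other classes, 3 lower and 17 not called, with a median log2 difference of 1.02. Cd68, the glycoprotein used to stain macrophages (5.41), Tfec, a relative of Tfeb (5.32), and Laptm5, a membrane protein of blood cells (4.21), led. Cst6, a secreted cystatin (-1.62), Atp6v0a2, a pump subunit with known Golgi roles (-0.70), and Igf2r, a receptor that sorts hydrolases (-0.63), were the 3 lower genes. By list, 11 of 13 further pump subunits were higher, as were 18 of 26 hydrolases, 12 of 20 membrane and sorting proteins, 3 of 3 relatives of Tfeb and 3 of 5 cathepsin inhibitors.

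In the foamy against resident comparison 35 of the 71 were tested, and 7 were higher and 1 lower by edgeR's quasi-likelihood test. Acp5, tartrate-resistant acid phosphatase, was at 4.64 (SE 0.52) and Igf2r at 1.85 (SE 0.54). M6pr, the other receptor for mannose 6-phosphate tags, was at 1.72 and Atp6v1g1 at 1.09, with Cd68 and Cstb also higher. Ctsf, cathepsin F, was lower at -1.99 (SE 0.64). Of the 11 further pump subunits tested, Atp6v1g1 was the only one called.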

How the data were processed

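Aortas were perfused, digested with collagenases and liberase, and loaded on a droplet device with a 3′ kit, per the labels' protocols. The deposited matrices hold UMI counts per gene and barcode, which the authors made with Cell Ranger 6.0.1 (normal diet) and 6.1.2 (western diet), per the file headers. The submitters' processing notes name Cell Ranger 6.1.2, Seurat 4.1.0 and mm10.

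Here counts were summed per library and class or state. Classes were tested with edgeR 4.0.16 (DESeq2 1.42.0 as an alternative) in R 4.3.3. The comparison of macrophages with the mean of the other classes was tried on simulated data. With 200 of 13780 genes changed by 4-fold, 89% were recovered and 2.73% of the genes called were false. No such check is given for the foamy against resident comparison. Ratios used 0.5 added UMIs, genes of at least 20 UMIs and exact binomial 95% intervals, and were reported minus the all-gene median where that passed 0.1. Doublets were kept, except in an alternative that left out scrublet calls (scanpy 1.11.5). Gene IDs were joined to GENCODE M21 (99.6% of 32285), where 12 members overlap a gene on the other strand and 4 (Ctsd, Ctsl, Ctss and Glb1) on the same strand, and the strand setting of the counting is not given in the sources used here.

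Values were given in every library for the top member of each role, the 5 largest and 5 smallest class differences, members past 2-fold between libraries and the 3 largest state differences in each direction among those called, and 1 gene that this rule names among the other lysosome genes is not reported here. The members and lists were chosen with earlier results of these data known. Kept barcodes had a median of 4167, 3404, 2103 and 6761 UMIs, and a count of 0 in macrophages allows up to 6.28 CPM in the WT normal diet library (3 UMIs).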

Additional observations from a re-analysis of the deposited data

Results flagged for a closer look

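In 6 members the ratio of LysM-DKO over WT in macrophages pointed opposite ways on the 2 diets, with both 95% counting intervals apart from 0. The share of all genes that did so is not given here. Intervals lay above 0 for 9.31% of genes and below 0 for 7.53% on normal diet, and for 10.0 and 11.3% on western diet. Members have more UMIs than most genes (medians of 443 against 61, then 1591 against 119), so that their intervals are narrower. With 1 library per group, the difference between the diets was not tested. Ctsb was at 0.17 on normal diet and -0.31 on western diet, on the log2 scale. Ctsd was at 0.57 and -0.67, Ctsl at 0.29 and -0.36, Ctss at 0.49 and -0.25, and Lgmn at 0.28 and -0.16. These 5 encode lysosomal proteases, and over all macrophages each was higher in the LysM-DKO library on normal diet and lower on western diet. The mix of states differed between the western diet libraries, with 2.24% of WT and 28.9% of LysM-DKO macrophages resident. Within foamy and within resident macrophages the 5 point values had the same directions, some by less than their counting intervals, with 9 foamy barcodes in the WT normal diet library. In macrophages of neither state Ctsb had the opposite directions, at 2186 CPM in WT and 1982 CPM in LysM-DKO on normal diet and at 1734 and 1933 CPM on western diet. There Ctss was higher in LysM-DKO on both diets (584 and 840 CPM, then 852 and 1211 CPM), Ctsl was lower on both, and Lgmn was at 474 and 442 CPM, then 489 and 483 CPM. The part of the state mix was not tested. Over all macrophages Atp6v1a, the catalytic subunit of the proton pump, was at -0.40 on normal diet and 0.22 on western diet.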

How the results depend on the processing

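Other settings were scaling, count model, filters on genes and barcodes, doublets, a stricter C1q minimum, no library block, single macrophage states, and leaving out each library. The counts of members higher in macrophages (33 to 34 without 1 library) and against fibroblasts (26 to 28) stayed within 1.5 times. Members differing between foamy and resident macrophages numbered 4 to 17 without 1 library (12 with all), the 4 without the WT western diet library, where Ctsk also turned to -2.77 against the mean of the classes (-2.77 to 0.53 without 1 library, 0.25 with all). No library was left out of a ratio between libraries, since each group has 1, and no paired analysis was possible because of that for groups. Classes and states were paired within libraries by the block, without which 34 members were higher in macrophages, 28 against fibroblasts, and 9 differed between states.

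The normal diet genotype median was 0.69 with foamy macrophages alone and -0.075 with those of neither state. The western diet genotype median, 0.03, turned to -0.043 (at least 2000 UMIs), -0.10 (leaving out barcodes of several rules), -0.00072 (doublets out), -0.18 (at least 10 C1q UMIs), -0.00060 (at least 50 UMIs per gene), -0.079 (no minimum), -0.044 (foamy) and -0.012 (resident), and was 0.32 with neither state. The cause was not tested. The WT diet median was 0.88 without barcodes of several rules, 0.90 with no minimum, 0.90 in foamy, 0.088 in resident and -0.20 in neither. The LysM-DKO diet median turned to -0.13 in resident. In WT, Psap turned to -0.24 (resident) and -0.34 (neither), Ctsl to -0.13 and Ctsz to -0.10 (neither). In LysM-DKO, Ctsd and Ctsl turned to -0.52 and -0.77 (resident), and to -0.079 and -0.24 (neither).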

Other observations

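Between diets in WT, the members had a median log2 ratio of western over normal diet of 0.45 in smooth muscle and 0.49 in endothelial cells, where the medians of all genes were -0.01 and -0.02. In LysM-DKO the member medians were -0.06 and 0.12. Lyz2, a macrophage gene, was at 13.1 and 54.3 CPM in smooth muscle of the WT normal and western diet libraries. In those of LysM-DKO it was at 16.8 and 0.892 CPM, and its part was not tested. The WT western diet library also enters the smooth muscle comparison between genotypes on western diet. Intervals in these comparisons cover counting error only.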
